A study of Mus musculus with 6 samples.

Results

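Aminoacyl-tRNA synthetases join each amino acid to its matching transfer RNA, and the charged tRNA then feeds the ribosome. Separate nuclear genes supply the cytosol and the mitochondrial matrix, although Gars and Kars each serve both compartments and Eprs carries 2 activities, for glutamate and for proline, in 1 protein. Acinar cells of the exocrine pancreas make digestive enzymes in bulk and therefore translate at a high rate. A total of 36 synthetase genes, chosen by name, were followed among the 22556 genes with deposited values: 20 cytosolic and 16 mitochondrial. Mars1 appeared under its older symbol, Mars.

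The transcriptome of the whole pancreas was measured by RNA-sequencing in 6 mice, all wild-type C57BL/6 at post natal week 8, with 2 mice in each group. The saline group received saline, and the AP group received cerulein (caerulein), a peptide that overstimulates acinar cells and produces acute pancreatitis when injected hourly. The polyI:C-pretreated AP group received polyI:C, a synthetic RNA that triggers type I interferon, plus cerulein. Mice given polyI:C alone were not analysed here. Nothing in the labels says that the mice of a group were handled separately, so p-values here measure the spread between these mice only. The comparisons asked which synthetases changed with pancreatitis and whether polyI:C pretreatment altered their levels.

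Levels are in TPM, a relative transcript abundance that corrects for gene length and sums to the same total in every mouse. The spacing of low values gave an estimated 3296398 to 3960921 reads per saline library and 6901429 to 10817348 per library in the other groups, so the saline values were the least deeply sampled. All 36 members passed the filter of 1 TPM on average, with 7 estimated reads at the fewest, for Pars2 in a saline mouse, and 10092 at the most, for Nars. TPM values share 1 total, so what abundant transcripts take is lost to all others. Of the genes with values, the 15 that each exceeded 1% of a library held 27.6% to 30.4% of the saline TPM but 16.7% to 19.0% in AP and 15.4% to 16.3% after polyI:C. The median log2 fold change over all 16814 genes tested was 0.45 in AP against saline and 0.48 in polyI:C-pretreated AP against saline. Between the pretreated and the untreated AP mice it was 0.04. After median-of-ratios scaling, which divides each library by its median ratio to the gene means over the 6 mice, these medians were 0.04, 0.04 and 0.01. Fold changes against saline are therefore given as deposited and scaled, except in the comparison within pairs.

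Several cytosolic synthetase genes are known targets of Atf4, the transcription factor of the integrated stress response, and Wars is a known interferon-gamma target. RefSeq promoter windows on GRCm38.p6, from 250 bases before to 50 after the transcription start, matched 27 of the 36 members in 28 windows. Cars, Hars, Hars2, Lars, Nars, Pars2, Rars, Vars and Wars had no window in the table. The Atf4 element TGATGNAA, searched on both strands, occurred in 5 of the 28 member windows (17.9%), against 3.97% of all 32851 windows. All 5 were cytosolic genes, and a match in each is shown in capitals within 30 bases, 5′ to 3′ on the gene's strand, so that the elements can be compared.
Aars: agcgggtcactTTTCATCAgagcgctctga
Gars: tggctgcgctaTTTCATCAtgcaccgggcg
Iars: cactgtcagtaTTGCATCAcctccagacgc
Tars: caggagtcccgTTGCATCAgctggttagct
Yars: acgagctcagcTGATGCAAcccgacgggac
The Aars stretch lies at chr8:111033840-111033869 and starts its match 10 bases after the start site. Those of Gars (chr6:55037960-55037989) and Tars (chr15:11399655-11399684, minus strand) start 30 and 15 bases before it. Those of Iars (chr13:49682126-49682155) and Yars (chr4:129189895-129189924) start 8 and 4 bases after it. The interferon-stimulated response element, searched in the same way, occurred in Qars alone, at 3.57% of member windows against 3.44% of all windows, and the GAS element TTCNNNGAA in Aars, Kars and Nars2, at 10.7% against 8.30%. These matches describe letters in the windows and not binding.

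The median level in a mouse was 101 to 148 TPM for the cytosolic and 11.7 to 17.7 TPM for the mitochondrial genes, although the classes overlapped: Fars2 lay above 7 cytosolic genes. Nars, which charges asparagine tRNA, was the most abundant member at a mean of 718.5 TPM over the 6 mice. Its values were 594 and 707 TPM in the saline mice, 772 and 832 in AP and 702 and 705 in polyI:C-pretreated AP. The leucine enzyme gene Lars followed at 312 and 382 TPM in saline, 389 and 408 in AP and 344 and 360.3 in polyI:C-pretreated AP. The glycine enzyme gene Gars (chr6:55038007-55079500 on GRCm38, the build of all gene positions here) came next, close to Lars, at 289 and 265, 413 and 410.4 and 402 and 373 TPM in the same order. Lars and Gars exchanged places between the groups, so their order was not fixed. Tars (threonine) and Sars (serine) came next at means of 294 and 275 TPM, a gap smaller than the one between the 2 saline mice for either gene. The least abundant cytosolic genes were Qars, for glutamine, and Farsa, for the catalytic alpha subunit of the phenylalanine enzyme, at means of 38.2 and 30.3 TPM. Its partner subunit gene Farsb had a mean of 60.2 TPM.

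Among the mitochondrial genes, Fars2 (phenylalanine) led at a mean of 88.0 TPM, followed by Iars2 (isoleucine) at 45.4 and Lars2 (leucine) at 42.2. Apart from Pars2, the rest lay between 5.95 TPM, for the tryptophan gene Wars2, and 32.3 TPM, for the arginine gene Rars2. Pars2 (proline, chr4:106651069-106655282) was the lowest member, with 2.58 and 1.98 TPM in saline, 4.03 and 3.30 in AP and 3.71 and 3.94 in polyI:C-pretreated AP. In all 15 pairs of genes that charge with the same amino acid, the cytosolic gene had the higher mean, from 2.85 times that of its partner for isoleucine to 72.4 times for asparagine. Phenylalanine, whose cytosolic enzyme is encoded by Farsa and Farsb, was not among these pairs. There the mitochondrial gene Fars2 lay above both, at a mean of 88.0 TPM against 30.3 and 60.2. The plot of levels shows both classes mouse by mouse.

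**Figure D1:**
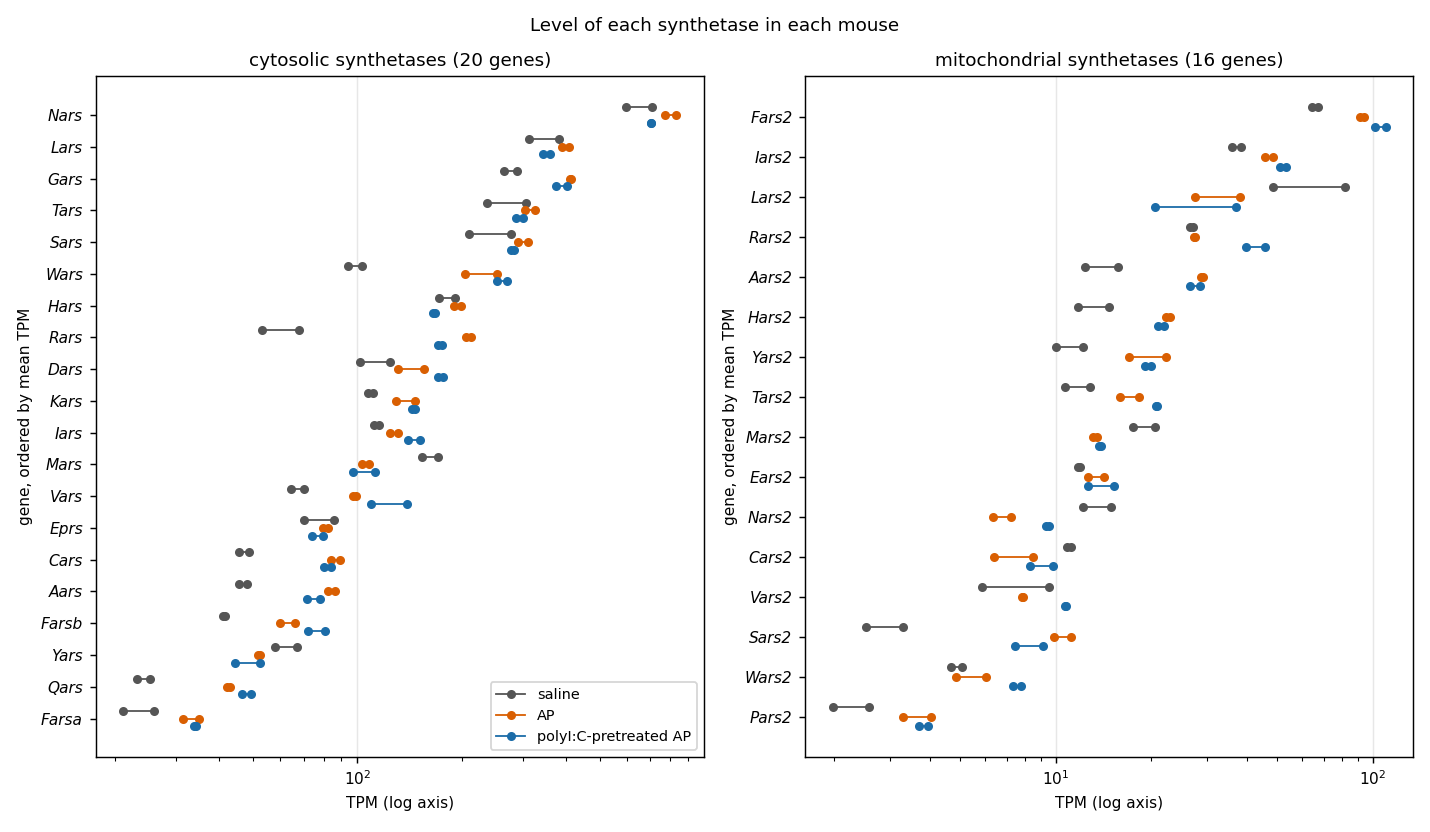
Level of each of the 36 synthetase genes in each mouse, in TPM on a log axis, with cytosolic genes on the left and mitochondrial genes on the right. Each point is a mouse and each line joins the 2 mice of a group; Rars, Wars, Sars2 and Aars2 have saline points clearly below the other groups, and Mars, Mars2 and Nars2 have saline points above them.

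Summed over the class, the cytosolic genes reached 2824 and 3216 TPM in the saline mice, 3854 and 3981 in AP and 3777 and 3729.9 in polyI:C-pretreated AP. The mitochondrial genes summed to 340.4 and 296 TPM in saline, 356 in each AP mouse, and 396 and 394 in polyI:C-pretreated AP. On the deposited scale, both saline mice were thus below all 4 pancreatitis mice in each class. After median-of-ratios scaling the cytosolic sums were 3447 and 3983 in saline, 3495 and 3551 in AP and 3286 and 3345 in polyI:C-pretreated AP, and saline no longer lay below the others. The scaled mitochondrial sums, 415 and 366 in saline, 323 and 318 in AP and 344 and 353 in polyI:C-pretreated AP, were highest in the saline mice. Lars2 weighed on this order, at 81.8 and 48.4 TPM as deposited in saline and 20.5 to 38.0 TPM in the other mice. Sums without Lars2 were not taken, so the order is not shown for the class as a whole. Its scaled median log2 fold change against saline was -0.18 in AP and 0.17 in polyI:C-pretreated AP. Synthetases made up 0.316% to 0.434% of all TPM, in values that covered only 9 of 26 listed acinar markers. The cytosolic sum was 8.30 to 11.2 times the mitochondrial sum in a mouse, a ratio that scaling leaves as it is. In bulk tissue, fewer cells of a type and less RNA per cell cannot be told apart. The sums were not tested, since for 2 mice against 2 the smallest two-sided p of an exact permutation test is 0.333.

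**Figure D2:**
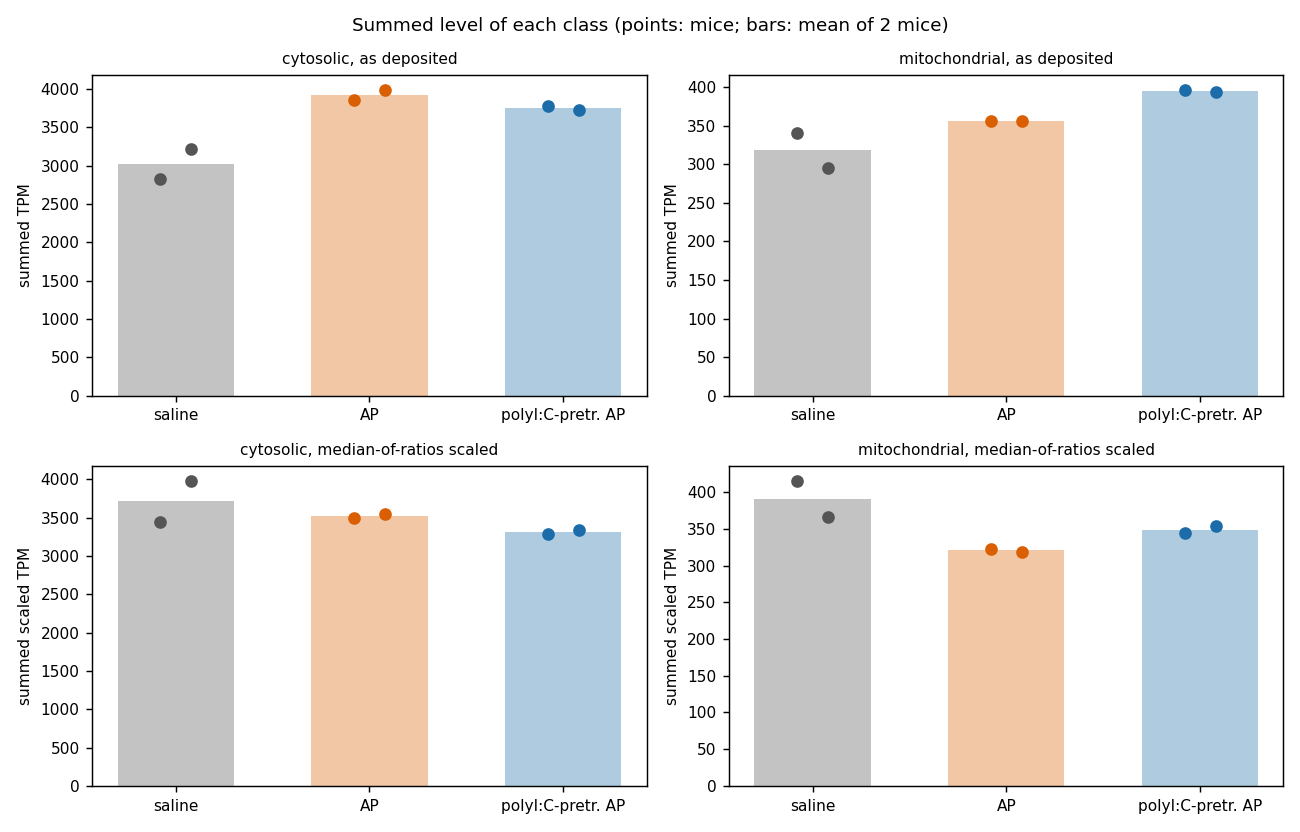
Summed level of the 20 cytosolic (left) and 16 mitochondrial (right) synthetase genes in each group, as deposited (TPM, top) and after median-of-ratios scaling (bottom), with 1 point per mouse and bars at the mean of 2 mice. The saline points are the lowest of each upper panel, and in the lower right panel they are the highest. Lars2 weighs on the mitochondrial sums, at 81.8 and 48.4 TPM in saline as deposited.

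In AP against saline, 17 synthetases rose and 3 fell on the deposited scale at an adjusted p of at most 0.05 (limma, Benjamini-Hochberg over all genes tested). This was 47.2% and 8.33% of the members, where 33.0% of all genes rose and 7.39% fell. At least 2-fold, 4 rose (18.2% of all genes did) and 0 fell (4.03% of all genes). The median log2 fold change was 0.34 for the 20 cytosolic and 0.26 for the 16 mitochondrial genes, both below the 0.45 of all genes. For the cytosolic genes this order was not fixed. With no filter on low values the cytosolic median was 0.338 and that of all genes 0.333, and without saline replicate 2 they were 0.483 and 0.439. Without adjustment 19 rose and 5 fell at p of at most 0.05, beside 39.4% and 9.54% of all genes. A total of 10 cytosolic genes rose and Mars fell, and 7 mitochondrial genes rose while Mars2 and Nars2 fell. On the scaled values 7 rose and 8 fell, beside 16.7% and 15.6% of all genes, and the class medians turned negative at -0.11 and -0.18. The groups did not overlap for 25 members that were higher and 6 that were lower in AP on the deposited scale, where 52.6% and 16.4% of all genes were so. The calls depended on both AP mice: without either of them 10 members rose, and without AP replicate 1 the 3 falls lost their call.

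**Figure D3:**
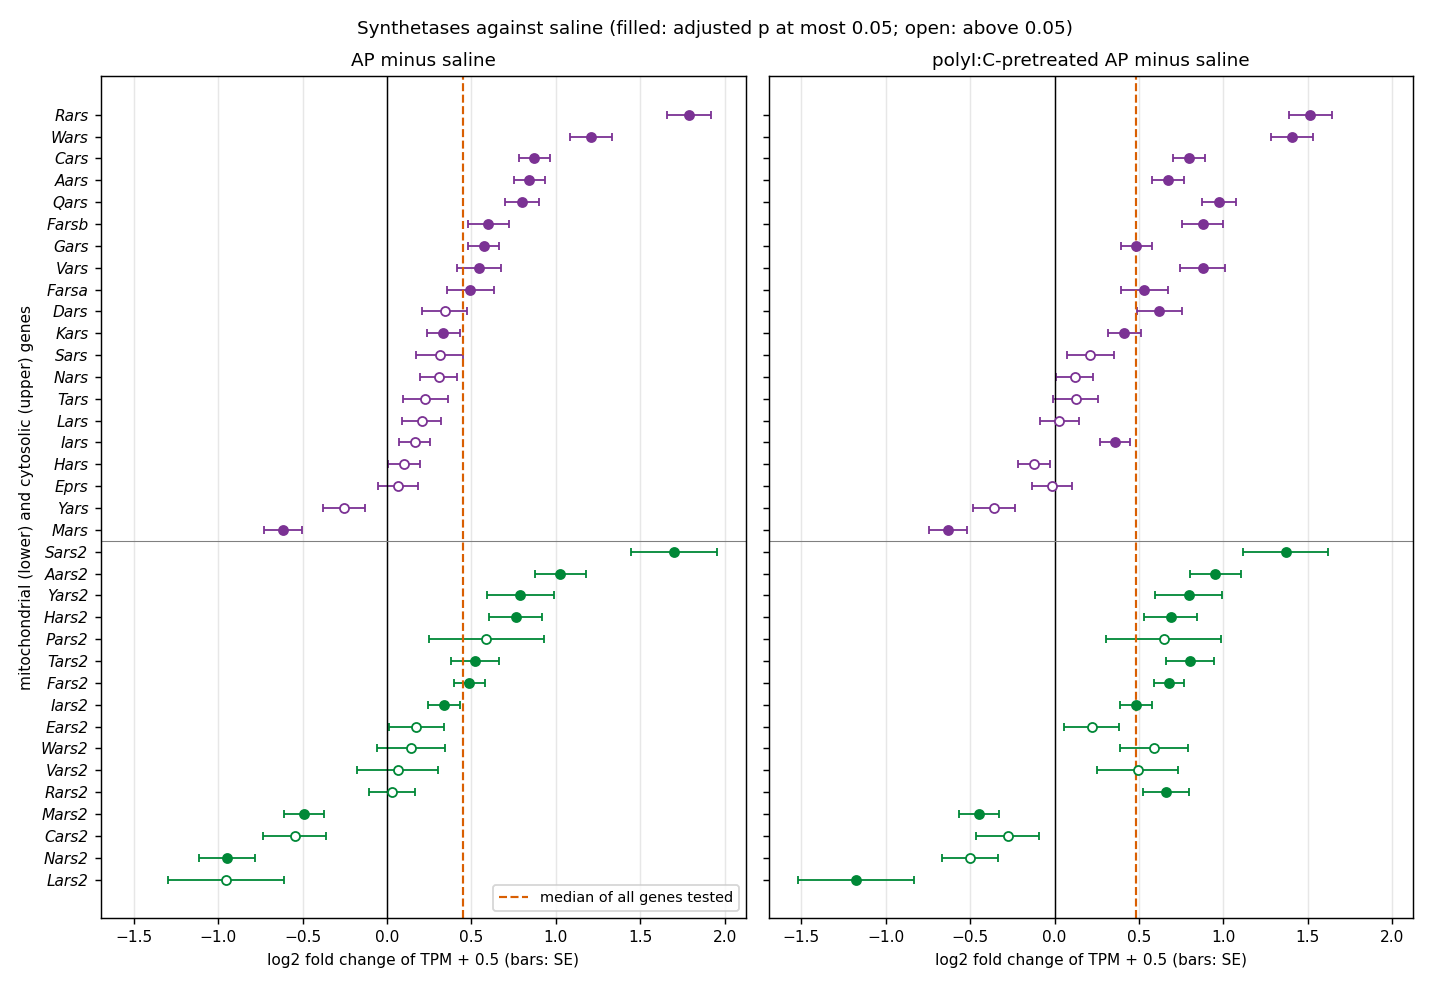
Log2 fold change of each synthetase against saline, for AP (left) and polyI:C-pretreated AP (right), as deposited, with bars of 1 SE and filled points at an adjusted p of at most 0.05. The dashed line is the median of all 16814 genes, at 0.45 and 0.48, and most members lie between 0 and a little above it, with Rars, Wars and Sars2 farthest to the right and Mars, Nars2 and Lars2 to the left. In the left panel, values between 0 and the dashed line, among them Nars, Lars and Kars, turn negative when scaled.

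Rars had the largest log2 fold change of all members at the pseudocount of 0.5, whereas at 0.1 that of Sars2 was larger (1.83 against 1.80). Rars encodes the cytosolic arginine enzyme, a subunit of the multisynthetase complex (chr11:35808381-35834506, minus strand). Its level was 53.2 and 67.9 TPM in saline, 212 and 206 in AP and 170.4 and 175 in polyI:C-pretreated AP, so that every pancreatitis mouse lay far above both saline mice. The log2 fold change in AP was 1.79 ± 0.13 (SE, n = 2 mice per group; limma adjusted p = 0.000165), or 3.46-fold, and 1.34 when scaled (adjusted p = 0.00074). Wars, the cytosolic tryptophan enzyme gene (chr12:108860030-108894174, minus strand), had 103 and 93.9 TPM in saline, 252 and 205 in AP and 253 and 270.1 in polyI:C-pretreated AP. It rose by 1.21 ± 0.12 on the log2 scale in AP (limma adjusted p = 0.000569), and by 0.76 when scaled (adjusted p = 0.00576), where it passed the test but not the 2-fold limit. Both genes kept their direction and an adjusted p of at most 0.05 in AP under every alternative run.

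The mitochondrial serine and alanine enzyme genes rose as well. Sars2 (chr7:28741992-28753871) was among the lowest members, at 3.31 and 2.52 TPM in saline, where it rested on an estimated 16 and 10 reads. It reached 11.2 and 9.87 TPM in AP and 9.12 and 7.46 in polyI:C-pretreated AP, all above saline. Its log2 fold change in AP was 1.70 ± 0.25 (limma adjusted p = 0.00232) and 1.30 when scaled (adjusted p = 0.00961). Aars2 (chr17:45506841-45520843) had 15.8 and 12.3 TPM in saline, 29.2 and 28.6 in AP and 28.5 and 26.4 in polyI:C-pretreated AP, again without overlap. It rose by 1.03 ± 0.15 (limma adjusted p = 0.00225) and by 0.59 when scaled (adjusted p = 0.0232).

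Beside these 4 genes, Aars (alanine), Cars (cysteine) and Qars (glutamine) rose on both scales, each by less than 2-fold. Cars went from 45.5 and 48.6 TPM in saline to 89.2 and 84.0 in AP, a log2 change of 0.87, or 0.43 when scaled (limma adjusted p = 0.000648 and 0.015). Aars went from 45.6 and 47.9 to 82.5 and 86.2 TPM, a change of 0.84, or 0.40 when scaled. Qars went from 23.2 and 25.3 to 42.9 and 42.0 TPM, a change of 0.80, or 0.36 when scaled. The exons of Aars overlap those of Exosc6, on the same strand, and Gm24103, on the opposite strand, by at most 1326 bases for either gene. The other 10 members that rose as deposited, Farsa, Farsb, Gars, Kars, Vars, Fars2, Hars2, Iars2, Tars2 and Yars2, lost the call when scaled. Of these, Kars and Iars2 also changed sign, from 0.33 and 0.34 as deposited to -0.12 and -0.11 scaled.

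Of the members carrying the Atf4 element, Aars rose on both scales and Gars, which took 413 and 410.4 TPM in AP, rose as deposited only (log2 change 0.57 ± 0.09, limma adjusted p = 0.00309, and 0.12 scaled, adjusted p = 0.332). Iars, Tars and Yars passed the test in neither direction as deposited, at 0.16, 0.23 and -0.25, and Yars (tyrosine) fell when scaled, by a log2 change of -0.70 (limma adjusted p = 0.00854).

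Mars, the cytosolic methionine enzyme gene (chr10:127296221-127311786, minus strand), fell. Its level was 154 and 171 TPM in saline, 103 and 108 in AP and 112 and 97.5 in polyI:C-pretreated AP, and no pancreatitis mouse reached a saline value. The log2 change in AP was -0.62 ± 0.11 (limma adjusted p = 0.00499) and -1.07 when scaled (adjusted p = 0.000708). Its exons share 68 bases with those of Ddit3, which encodes a stress-induced transcription factor on the opposite strand, and the strand setting of the read counting is not given in the sources used here. Ddit3 moved the other way, with 23.5 and 22.3 TPM in saline, 99.5 and 80.3 in AP and 65.2 and 51.9 in polyI:C-pretreated AP.

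The mitochondrial partner Mars2 fell too, from 17.5 and 20.5 TPM in saline to 13.5 and 13.1 in AP (log2 change -0.49 ± 0.12, limma adjusted p = 0.0164, and -0.93 scaled, adjusted p = 0.00203). Nars2, for mitochondrial asparagine tRNA (chr7:96951505-97064758), had 12.2 and 15.0 TPM in saline, 6.33 and 7.24 in AP and 9.33 and 9.50 in polyI:C-pretreated AP. Its log2 change in AP was -0.95 ± 0.17 (limma adjusted p = 0.00448) and -1.38 when scaled. Without AP replicate 1, Mars and Nars2 missed the threshold at adjusted p = 0.059 and 0.0506, with changes of -0.59 and -0.86. Lars2 (chr9:123366927-123462666) varied widely within groups, at 81.8 and 48.4 TPM in saline, 38.0 and 27.4 in AP and 37.0 and 20.5 in polyI:C-pretreated AP. Both AP mice lay below both saline mice, yet the 2 saline values differed widely and the change of -0.95 ± 0.34 did not pass as deposited (limma adjusted p = 0.0671). It passed at -1.40 when scaled (adjusted p = 0.0207).

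The most abundant genes, Nars and Lars, passed the test in neither direction in AP. Nars differed between AP and saline by 0.31 ± 0.11 (limma adjusted p = 0.0655) and by -0.14 when scaled, and Lars by 0.21 ± 0.12 (adjusted p = 0.205) and by -0.24 when scaled, so that both changed sign with the scale. Hars, for cytosolic histidine tRNA, had 172 and 191 TPM in saline, 189.6 and 199.7 in AP and 165 and 168 in polyI:C-pretreated AP. Its saline and AP mice overlapped, and the log2 difference was 0.10 as deposited (limma adjusted p = 0.446) and -0.35 scaled (adjusted p = 0.0352). Hars and Hars2 are neighbours on opposite strands that share 195 exon bases. In all, 11 members passed the test on neither scale: Dars, Iars, Lars, Nars, Sars, Tars, Ears2, Pars2, Rars2, Vars2 and Wars2.

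Paired genes often had unlike fold changes. A difference between the 2 fold changes of a pair does not depend on library scaling, apart from the pseudocount of 0.5 added to each value. The cytosolic change was above the mitochondrial one in 6 of the 15 pairs and below it in 9. For arginine the cytosolic gene changed by 1.79 and Rars2 by 0.03 ± 0.14, with Rars2 at 27.0 and 26.6 TPM in saline and 27.4 and 27.4 in AP. For tryptophan the values were 1.21 for Wars and 0.14 ± 0.20 for Wars2, which had 5.05 and 4.66 TPM in saline and 4.84 and 6.03 in AP. For serine it was the mitochondrial gene that rose, at 1.70 against 0.31 for Sars (limma adjusted p = 0.118 for Sars). For cysteine Cars rose while Cars2 had a value of -0.55 (adjusted p = 0.0554). Only the methionine pair fell in both compartments, and only the alanine pair rose in both on both scales. The differences within pairs were not tested.

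**Figure D4:**
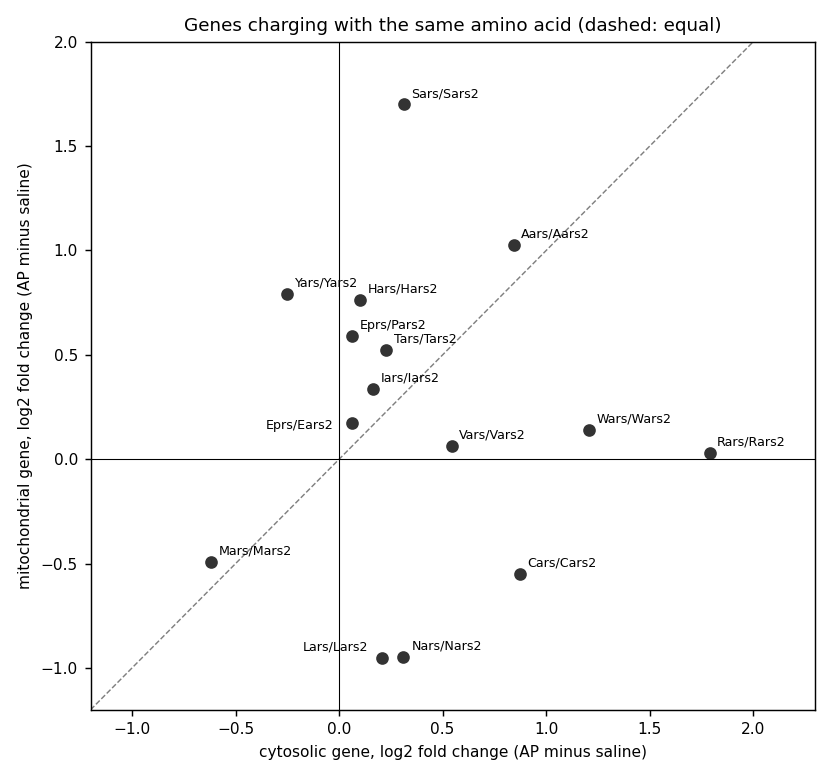
Log2 fold change in AP against saline of the cytosolic gene (horizontal axis) and of the mitochondrial gene (vertical axis) for the 15 pairs that charge with the same amino acid, with Eprs shown beside both Ears2 and Pars2. Phenylalanine is not among the pairs. The dashed line marks equal change; 9 pairs lie above it and 6 below, with Rars/Rars2 and Sars/Sars2 farthest from it on either side.

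Grouped by structure, the 8 enzymes of the multisynthetase complex (Dars, Eprs, Iars, Kars, Lars, Mars, Qars and Rars) held 3 that rose and 1 that fell in AP as deposited, with a median of 0.27, and 2 that rose and 2 that fell when scaled, with a median of -0.18. Over all genes 33.0% rose and 7.39% fell as deposited, and 16.7% and 15.6% when scaled, and the counts of all 3 groupings are to be read beside these shares. Of the 9 cytosolic class I enzymes 5 rose and 1 fell, with a median of 0.54, and 4 rose and 2 fell when scaled. Of the 10 class II enzymes 5 rose and 0 fell, with a median of 0.34, while 1 rose and 1 fell when scaled. In polyI:C-pretreated AP against saline the complex held 5 that rose and 1 that fell, class I 6 and 1, and class II 6 and 0, where 33.4% of all genes rose and 5.80% fell. When scaled these were 2 and 3, 4 and 3, and 0 and 1, where 14.2% rose and 12.9% fell. Eprs, which belongs to the complex and spans both classes, had 70.0 and 85.9 TPM in saline and 79.7 and 82.6 in AP. Its log2 difference was 0.06 as deposited (limma adjusted p = 0.704) and -0.38 scaled (adjusted p = 0.0486). For the 3 scaffold genes of the complex both AP mice lay above the saline mice, as for 52.6% of all genes. Eef1e1 (0.87, limma adjusted p = 0.0032) and Aimp1 (0.47, adjusted p = 0.0361) rose as deposited, while Aimp2 was at 0.59 (adjusted p = 0.129). When scaled the values of Eef1e1, Aimp1 and Aimp2 were 0.42, 0.02 and 0.16, and 0 of the 3 passed (adjusted p = 0.0665, 0.934 and 0.703 in that order).

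In polyI:C-pretreated AP against saline, which shares its saline mice with the previous comparison, 20 synthetases rose and 3 fell as deposited. These were 12 cytosolic and 8 mitochondrial genes that rose, and Mars, Lars2 and Mars2 that fell, where 33.4% of all genes rose and 5.80% fell. At least 2-fold, Rars, Wars and Sars2 rose and Lars2 fell, beside 16.9% and 2.97% of all genes. The class medians were 0.45 for the cytosolic and 0.62 for the mitochondrial genes, around the 0.48 of all genes. With no filter on low values the median of all genes was 0.38, below both. When scaled, 5 members rose (14.2% of all genes) and 9 fell (12.9%), with class medians of -0.03 and 0.17. Without adjustment or scaling, 21 rose and 5 fell, beside 40.7% and 7.71% of all genes. The pretreated and saline mice did not overlap for 25 members that were higher and 7 that were lower, beside 54.4% and 14.0% of all genes, and these included each of the 16 mitochondrial genes. Cars, Qars, Rars, Wars and Sars2 rose on both scales. Without polyI:C-pretreated AP replicate 1 a total of 10 rose as deposited, and without replicate 2 a total of 13.

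Rars changed by 1.52 ± 0.13 (limma adjusted p = 0.000314) and by 1.04 when scaled. Wars changed by 1.41 ± 0.12 (adjusted p = 0.000353) and by 0.93 when scaled. Sars2 changed by 1.37 ± 0.25 (adjusted p = 0.00593) and by 0.94 when scaled, and its deposited call was lost without polyI:C-pretreated AP replicate 1 (adjusted p = 0.0547). Mars fell again, with a log2 change of -0.63 ± 0.11 (adjusted p = 0.00491) and -1.11 when scaled. The fall of Lars2, -1.18 ± 0.34 (adjusted p = 0.0344) and -1.65 when scaled, was lost as deposited without any 1 of 5 mice, with adjusted p of 0.0664 to 0.208, and the one whose removal kept it was saline replicate 2.

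PolyI:C-pretreated AP was then compared with AP, both of which received cerulein. By limma 0 of the 36 synthetases passed at an adjusted p of at most 0.05 on either scale, where as deposited 0.714% of all genes were higher and 0.517% lower (0.607% and 0.565% when scaled). At least 2-fold the shares of all genes were 0.440% and 0.404%. At an unadjusted p of at most 0.05, Rars2, Nars2 and Vars were higher and 0 were lower, beside 7.83% and 6.07% of all genes. At that threshold 3 were higher and 1, Hars, was lower when scaled (6.80% and 6.73% of all genes), and 3 were higher and 4, all cytosolic, were lower by limma-voom on estimated reads (8.42% and 9.77%). The class medians were -0.08 for the cytosolic and 0.10 for the mitochondrial genes, with 0.04 for all genes. The 95% interval of the log2 difference lay within 2-fold in both directions for 34 members, the exceptions being Lars2, which reached down to -1.05, and Vars2, which reached up to 1.00.

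**Figure D5:**
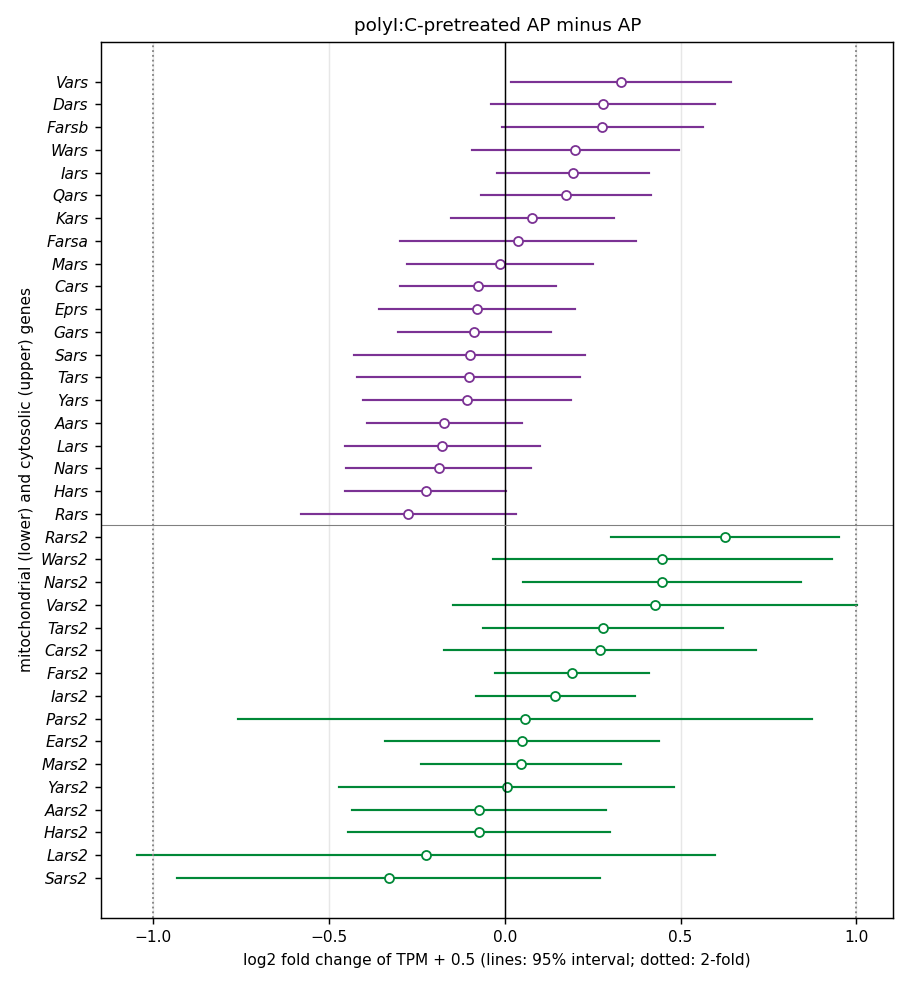
Log2 difference between polyI:C-pretreated AP and AP for each synthetase, as deposited, with lines for the 95% interval and dotted lines at 2-fold either way. All points are drawn open whatever their p-value, and 0 members passed at an adjusted p of at most 0.05. The cytosolic values span -0.27 to 0.33 while the mitochondrial values span -0.33 to 0.63.

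Rars2 (chr4:34614957-34660167) had the largest difference. It was at 27.0 and 26.6 TPM in saline and 27.4 and 27.4 in AP, levels that lie close together, and at 39.7 and 45.7 in polyI:C-pretreated AP, above all 4 other mice. The log2 difference from AP was 0.63 (95% interval 0.30 to 0.95; limma adjusted p = 0.0932), with an unadjusted p of 0.003, so it did not pass over all genes. Its difference from saline, 0.66 ± 0.14, passed as deposited (adjusted p = 0.00913) but not when scaled (0.19, adjusted p = 0.366). Nars2 lay between the other groups in polyI:C-pretreated AP and differed from AP by 0.45 (interval 0.05 to 0.84; adjusted p = 0.3). Vars, for cytosolic valine tRNA, had 97.1 and 99.3 TPM in AP and 139.6 and 109.6 in polyI:C-pretreated AP, a difference of 0.33 (interval 0.02 to 0.64; adjusted p = 0.333). At the other end, Sars2 differed by -0.33 (interval -0.93 to 0.27) and Rars by -0.27 (interval -0.58 to 0.03), and neither passed (adjusted p = 0.643 and 0.417).

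Both polyI:C-pretreated mice were above both AP mice for 6 cytosolic and 8 mitochondrial genes and below them for 9 cytosolic and 3 mitochondrial genes, 14 and 12 of the 36 in all, where 27.7% and 22.1% of all genes were so. In 12 of the 15 pairs the mitochondrial difference was the higher one. These counts are descriptions over genes, genes of a class are not replicates, and the difference between the classes was not tested.

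Wars differed between polyI:C-pretreated AP and AP by 0.20 (95% interval -0.09 to 0.50; limma adjusted p = 0.552), and Wars2 by 0.45 (interval -0.04 to 0.93; adjusted p = 0.399), with Wars2 at 7.78 and 7.33 TPM after polyI:C. In the same contrast 12 of the 24 interferon-stimulated genes with values rose and 0 fell, with a median of 2.11. Of the 15 tested interferon-gamma type genes 2 rose and 0 fell, with a median of 0.91. Over all genes 0.714% rose and 0.517% fell. Both pretreated mice were above both AP mice for 12 of these 15 and below them for 3, where 27.7% and 22.1% of all genes were so. Rsad2, which encodes the antiviral enzyme viperin, had 3.91 and 2.97 TPM in saline, 70.3 and 94.8 in AP and 157 and 137 in polyI:C-pretreated AP, and its rise in AP was 4.39 on the log2 scale, or 3.98 when scaled (limma adjusted p = 3.4e-05). Oas1a, a sensor of viral RNA, had 2.91 and 1.79 TPM in saline, 15.1 and 25.1 in AP and 123 and 129 in polyI:C-pretreated AP, and rose again from AP to the pretreated mice (adjusted p = 0.0161). Tap1, a peptide transporter of antigen presentation in the interferon-gamma type list, had 2.91 and 4.88, 27.0 and 29.1 and 48.0 and 43.7 TPM in the same order, and Psmb9, an immunoproteasome subunit, had 1.58 and 1.03, 7.33 and 13.0 and 15.1 and 19.9. Against saline, 20 of the 24 interferon-stimulated genes rose in AP and all 24 in polyI:C-pretreated AP, with medians of 1.62 and 3.78 (15 and 23 when scaled). Over all genes 33.0% and 33.4% rose in these 2 contrasts, and 16.7% and 14.2% when scaled.

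Other genes of tRNA handling gave the following counts in AP against saline. They are to be read beside the shares of all genes, of which 33.0% rose and 7.39% fell as deposited, and 16.7% and 15.6% when scaled. Of 11 genes for tRNA editing, maturation and export, 6 rose and 1 fell as deposited (median 0.43), and 1 rose and 2 fell when scaled. Ssb, which protects new tRNA ends, went from 51.5 and 67.9 to 110.4 and 114 TPM (log2 change 0.92, limma adjusted p = 0.00347, and 0.47 scaled), and Trnt1, which adds the terminal CCA to tRNA, from 32.1 and 33.5 to 55.1 and 58.3 (adjusted p = 0.0017), and Trnt1 was the one that rose when scaled. Xpot, the nuclear exporter of tRNA and the gene of this list that fell, went from 246 and 268 to 219.9 and 205 TPM (adjusted p = 0.0497). Of 8 genes for mitochondrial tRNA charging and elongation, 5 rose and 0 fell (median 0.70), and 3 rose and 1 fell when scaled. Mtfmt, which formylates the initiator methionyl-tRNA, went from 4.35 and 2.97 to 12.2 and 12.5 TPM and Qrsl1, a subunit of the enzyme that makes mitochondrial glutaminyl-tRNA, from 6.29 and 7.31 to 17.3 and 15.7 (log2 changes 1.65 and 1.22, or 1.24 and 0.80 scaled, limma adjusted p = 0.00204 and 0.00179). Of 4 cytosolic elongation factor genes with values, Eef1g rose as deposited and 3 fell when scaled. Between polyI:C-pretreated AP and AP, 0 genes of these 3 lists passed by limma on either scale.

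Targets of the integrated stress response moved in both directions in AP. Among 4 kinases of eIF2alpha with values, Eif2ak2, the kinase activated by viral RNA, rose from 14.4 and 10.4 TPM in saline to 43.0 and 49.2 in AP (log2 change 1.86, or 1.43 scaled, limma adjusted p = 0.000361). Eif2ak3, the kinase of the endoplasmic reticulum, rose from 111 and 119 to 204 and 195 TPM (0.79, or 0.34 scaled, adjusted p = 0.000713), and both rose when scaled. Eif2ak4, the sensor of uncharged tRNA, was at 26.7 and 23.9 TPM in saline and 28.0 and 27.2 in AP (0.13, or -0.32 scaled, adjusted p = 0.399). Eif2ak1, the heme-regulated kinase, was at 33.8 and 28.4 TPM in saline and 37.2 and 33.0 in AP (0.17, or -0.27 scaled, adjusted p = 0.376). Of 30 integrated stress response targets of Atf4 with values, 12 rose and 9 fell in AP as deposited, with a median of 0.11, and 6 rose and 15 fell when scaled, with a median of -0.34. Over all genes 33.0% rose and 7.39% fell as deposited, and 16.7% and 15.6% when scaled.

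Gdf15, a stress-induced hormone gene, went from 0.234 and 4.61 TPM in saline to 36 and 32.6 in AP and 38.2 and 26.6 in polyI:C-pretreated AP, and Trib3, a pseudokinase that restrains Atf4 signalling, from 6.70 and 7.97 to 67.8 and 57.5 and 55.4 and 40.1 (limma adjusted p = 0.00653 and 0.00014 in AP). In contrast, Aldh1l2, a mitochondrial folate enzyme, fell from 155 and 151 to 37.4 and 33.7 TPM in AP, and Herpud1, an endoplasmic reticulum stress gene, from 947 and 1031 to 248 and 221 (adjusted p = 5.52e-05 and 8.36e-05). All 4 held their direction and call when scaled. Asns and Atf4 were singled out after their values were seen, because Asns makes the substrate of Nars. Asns fell from 1107 and 1143 TPM in saline to 778 and 764 in AP and 636 and 584 in polyI:C-pretreated AP (log2 change in AP -0.54, or -0.995 scaled, adjusted p = 0.00322). Atf4 itself had 567 and 683 TPM in saline, 965 and 978 in AP and 668 and 663 in polyI:C-pretreated AP. Its log2 change in AP was 0.64 (limma adjusted p = 0.00382), but 0.19 when scaled, where it did not pass (adjusted p = 0.245). Its difference between polyI:C-pretreated AP and AP, -0.55 as deposited and -0.57 scaled, passed on neither scale (limma adjusted p = 0.0758 and 0.0811). Between polyI:C-pretreated AP and AP 0 of the 30 passed as deposited and 1 fell when scaled, with a median of -0.28 as deposited. Of the 30, 21 were lower and 2 higher in both mice, where 22.1% and 27.7% of all genes were so.

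Cell-type markers moved with the groups in some lists and not in others. The pancreas was identifiable by its acinar genes: the 9 of 26 listed markers with values summed to 167951 and 152875 TPM in saline, 69578 and 51564 in AP, and 49914 and 50392 in polyI:C-pretreated AP, and 7 of the 9 fell in AP, beside 7.39% of all genes. Spink1, Klk1 and Sycn made up most of each sum. Between polyI:C-pretreated AP and AP, 3 of the 9 rose and 0 fell, beside 0.714% and 0.517% of all genes, with a median of 0.73. Both pretreated mice were above both AP mice for 7 of the 9, and below them for Klk1 and Sycn. Over all genes 27.7% and 22.1% were so. The 11 duct markers summed to 2459.9 to 2776 TPM in saline and 23319.7 to 33866 in the other groups. The 15 macrophage and monocyte markers summed to 497 to 769 TPM in saline, 2870.5 to 3317 in AP and 691 to 838 in polyI:C-pretreated AP. The last group had not simply the saline levels: against saline 5 of the 15 rose and 4 fell as deposited, and 4 rose and 5 fell when scaled. Over all genes 33.4% rose and 5.80% fell as deposited, and 14.2% and 12.9% when scaled. Neutrophil markers (10 of 12 with values) summed to 5.80 to 18.2, 64.5 to 73.0 and 23.2 to 45.4 TPM in the 3 groups, and T, B and NK cell markers to at most 32.4 TPM in any mouse. Endothelial markers summed to 57.4 to 86.3 TPM and fibroblast markers to 639.9 to 1032, with overlapping groups. In AP 5 of 9 fibroblast markers rose and 1, Dcn, fell as deposited, beside 33.0% and 7.39% of all genes. When scaled 3 rose and 1 fell, beside 16.7% and 15.6%. Dcn, at 671 and 540 TPM in saline and 308 and 425 in AP, made up most of the saline sum, so the sum does not show the rises. Islet markers summed to 1752 to 2327 TPM in saline and AP and to 1295 to 1643 in polyI:C-pretreated AP. No listed marker with values was at 0 in all mice. The part of these shifts in the synthetase values was not tested.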

How the data were processed

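Pancreas RNA from 6 mice was sequenced. The authors deposited TPM values per gene. Their methods and processing notes name Trimmomatic, STAR on mm10, HTSeq and DESeq2, while versions, the step from counts to TPM and the strand setting of the counting are not given in the sources used here, so reads of overlapping antisense genes may be mixed. The labels name both a TruSeq stranded mRNA kit and a ribosomal depletion with a directional kit.

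Values were transformed to log2(TPM + 0.5), which understates changes of low genes, and genes averaging 1 TPM or more were tested. Limma 3.58.1 (R 4.3.3) was fitted with 1 coefficient per group over all 6 mice, a prior variance trend on log2(mean TPM × exon length + 1), and Benjamini-Hochberg adjustment over the 16814 genes tested, with a threshold of 0.05 alone or with a 2-fold change. Standard errors and 95% intervals are limma's. Exon lengths and positions came from GENCODE M21 (GRCm38), and promoter sequences from RefSeq (GRCm38.p6). Further promoter stretches are not reported here. Read depth was estimated from the steps between low values, with 51.2% to 62.4% of them within 0.1 of a whole read, against 19.4% to 20.2% with shuffled lengths, so the estimate is approximate and shares of reads carry counting error only. The fit was tested on simulated data. Scripts ran in Python 3.11.15.

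The members and gene lists were chosen with earlier results of these data known. Values per mouse were given for members past 2-fold, the 3 largest rises and falls in each comparison, the 3 highest and lowest levels, and Wars with Wars2, and for other members after their values were seen. Other genes were the 2 to 4 of a list with the largest change in AP, except that Xpot and Eef1g, as the 1 call of a kind in their list, Ddit3, for its overlap, and Asns and Atf4 were named after their values were seen. Alternatives were the pseudocount, the filter, 2 scalings, the prior, limma-voom on estimated reads, a replicate block and leaving out each mouse. Mice were grouped by treatment label.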

Additional observations from a re-analysis of the deposited data

How the results depend on the processing

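Counts are synthetases that rose, fell, rose 2-fold and fell 2-fold. In AP against saline they were 17, 3, 4 and 0 as deposited, 7, 8, 2 and 3 with median-of-ratios scaling, 9, 6, 2 and 2 when rescaled without the genes above 1% of a library, and 8, 6, 2 and 2 with limma-voom on estimated reads. In polyI:C-pretreated AP against saline they were 20, 3, 3 and 1 as deposited and 5, 9, 1 and 2 with median-of-ratios scaling, while 11 rose and 6 fell without the genes above 1%, and 10 rose and 6 fell with limma-voom. There 5 fell with a filter of 5 TPM, 1 fell with a prior on the mean log2 value or without a trend, and 0 fell 2-fold with either prior or with no filter. At an unadjusted p of 0.05, 5 fell in each contrast with saline, beside 9.54% of all genes in AP and 7.71% in polyI:C-pretreated AP. At that threshold 3 were higher in polyI:C-pretreated AP than in AP (7.83% of all genes), where every adjusted count was 0. Shares of all genes for the rescaling without the genes above 1%, the filters, the priors and the left-out mice are not given here.

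Median log2 fold changes in AP were -0.11 (cytosolic) and -0.18 (mitochondrial) with median-of-ratios, 0.13 and 0.051 without the genes above 1%, and 0.10 and 0.019 with limma-voom, and the mitochondrial one was 0.17 with the 5 TPM filter. In polyI:C-pretreated AP against saline they were -0.027 and 0.17, 0.20 and 0.39, and 0.17 and 0.36.

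Signs turned, with median-of-ratios, without the genes above 1% and with limma-voom in that order, for Rars2 (-0.41, -0.17, -0.22), Wars2 (-0.27, -0.050, -0.10), Hars (-0.35, -0.11, -0.14) and Lars (-0.24, -0.0027, -0.034) in AP, and for Nars (-0.36, -0.13, -0.15) and Lars (-0.45, -0.22, -0.24) in polyI:C-pretreated AP against saline. Nars in AP turned with median-of-ratios alone (-0.14). Leaving out a mouse gave -0.0026 (without AP replicate 2) to 0.29 for Wars2 in AP, and in polyI:C-pretreated AP against saline -0.0067 (without saline replicate 1) to 0.24 for Nars and -0.12 (without saline replicate 1) to 0.18 for Lars, which was also -0.0049 without polyI:C-pretreated AP replicate 2. The cause was not tested.

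Leaving out each mouse gave 10 to 18 that rose, 0 to 3 that fell, 3 to 4 that rose 2-fold and 0 to 1 that fell 2-fold in AP, with medians of 0.26 to 0.48 and 0.20 to 0.34. In polyI:C-pretreated AP against saline the ranges were 10 to 20, 1 to 4, 2 to 6 and 0 to 1, with medians of 0.41 to 0.48 and 0.53 to 0.69, and against AP the medians were -0.11 to -0.03 and 0.09 to 0.18. A lone mouse was assumed to vary like the other groups.

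With the replicate number as a replicate block, 17 rose and 4 fell in AP (32.1% and 7.08% of all genes). In polyI:C-pretreated AP 20 rose and 4 fell (32.7% and 5.63% of all genes). Same-numbered mice did not deviate together (correlations 0.0075, -0.0039 and 0.035), so the numbers do not pair the mice. With 2 mice per group and 3296398 to 3960921 estimated reads in saline, low members such as Pars2 and Sars2 are the least precise.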
